A study of Homo sapiens with 6 samples.

Results

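The lysosome, its proton pump and the autophagy machinery were followed through 42 genes in MDA-MB-231 cells with and without knockdown of YAP1. Of these genes, 29 encode lysosome and V-ATPase proteins together with the 3 MiT/TFE transcription factors, and 13 encode autophagy machinery. They were chosen by name and kept where the 6 libraries averaged 0.5 FPKM or more. All 42 passed it, as did 14770 of the 60612 gene identifiers listed. FPKM counts fragments relative to transcript length and to the mapped total of the library, so levels of different genes can be set side by side per length.

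MDA-MB-231 is an established human triple-negative breast cancer (TNBC) cell line of epithelial origin. RNA was sequenced on day 3 from cells stably expressing a control hairpin (Sh-NC, genotype WT in the labels) and from cells stably expressing a hairpin against YAP1 (Sh-YAP1, YAP1 knockdown in the labels). Each group had 3 libraries, and no drug or other treatment was recorded for either group. The hairpin sequence, and whether a group was 1 clone or a mixed population, are not given in the sources used here. The comparison asks which transcripts differ when YAP1, the transcriptional co-activator of the Hippo pathway, is depleted.

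The lysosome is the acidic compartment in which cells break down macromolecules, membranes and damaged organelles. The V-ATPase, made of a cytosolic V1 sector that hydrolyses ATP and a membrane V0 sector that carries protons, acidifies it. In autophagy, cargo is enclosed in a double membrane decorated with ATG8 proteins and delivered to the lysosome, and TFEB, TFE3 and MITF bind E-box-like elements near many genes of both systems.

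YAP1 was measured first as a check of the labels. It stood at 28.1, 26.2 and 22.9 FPKM in the Sh-NC libraries against 3.35, 2.67 and 2.58 FPKM in the Sh-YAP1 libraries. The log2 fold change, Sh-YAP1 minus Sh-NC on log2(FPKM + 1), was -2.79 (SE 0.12, adjusted p = 0.0018, limma with Benjamini-Hochberg adjustment). When only transcripts above 0 in all 6 libraries were summed it was -1.78 with an adjusted p of 0.199, in a range of 0.00164 to 0.199 over the alternatives. Of the markers of the line, VIM lay between 1645 and 2303 FPKM and KRT8, KRT18, KRT19 and CD44 had means above 100 FPKM. ESR1 and PGR did not exceed 0.07 and 0.01 FPKM, CDH1 had a mean of 0.205 FPKM and EPCAM of 2.81 FPKM, whereas ERBB2 had a mean of 15.2 FPKM. KRT19, an epithelial keratin, fell from 177 ± 14.6 to 124 ± 3.69 FPKM (SD, n = 3) with a limma adjusted p of 0.0273, and its part in the values that follow was not tested. Among markers of leukocytes, endothelium and fibroblasts, 9 genes summed to between 6.27 and 12.6 FPKM per library, with COL1A1 the most abundant and CD3E at 0 throughout. In COL1A2, a collagen of fibroblasts, the groups did not overlap, at 1.28, 1.96 and 0.97 FPKM against 0.72, 0.17 and 0 FPKM (log2 fold change -0.91, adjusted p = 0.101), and its part in the values that follow was not tested. CD68, a macrophage marker that encodes a lysosomal glycoprotein, lay between 56.2 and 80.2 FPKM with overlapping groups. Genome-wide correlations of log2(FPKM + 1) between libraries ran from 0.978 to 0.982 within a group and from 0.971 to 0.976 between groups.

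None of the 42 genes passed a limma adjusted p of 0.05, where 499 of all 14770 genes tested did, or 3.38% (1.75% higher and 1.62% lower in Sh-YAP1). This background was not steady, with 78 to 171 genes called when 1 library was left out and 1 gene with the replicate number as a block. At an unadjusted limma p under 0.05 there were 6 of the 42, or 14.3%, against 21.9% of all genes. These were NPC1 and ATG5, with lower values in Sh-YAP1, and WIPI2, GABARAPL2, NPC2 and CTSL, with higher values. The sign of the log2 fold change was positive for 20 genes and negative for 22. The median was -0.01 and the median size 0.16, beside -0.00 and 0.16 over all genes tested. The extremes were -0.39 for MITF and 0.57 for both GABARAPL1 and BECN1, and 40 of the 42 lay within 0.5 of zero. These 3 values depended on single libraries. MITF was at -0.22 without Sh-YAP1 replicate 2 and at -0.52 without Sh-NC replicate 2. GABARAPL1 was at 0.21 without Sh-NC replicate 1 and at 0.86 without Sh-NC replicate 3. BECN1 was at 0.36 without Sh-NC replicate 1, at 0.21 without Sh-YAP1 replicate 2 and at 0.88 without Sh-NC replicate 2. None of the 3 changed sign under any alternative. With each library left out in turn, the values of 9 of the 42 genes kept their sign and moved by no more than 1.5 times, namely TFE3, LAMP1, LAMP2, NPC1, CTSL, NPC2, GABARAPL2, ATG5 and WIPI2. The other 33 moved further, and in MCOLN1, GLA, ATP6V0C, ATP6V0E1, ATP6V1C1, ATP6V1D, ATP6AP2 and SQSTM1 the sign turned. HEXA, at -0.00, and ATP6V0D1, at 0.03 but at -0.00 without Sh-NC replicate 2, were not counted. The 95% interval of the log2 fold change lay within 1 of zero for 38 genes, so a change as large as 2-fold on this scale was outside the interval for them. The intervals of GABARAPL1, BECN1, CTSB and ATP6V0C reached beyond 1. In bulk RNA a lower level in every cell and a loss in some of the cells cannot be told apart.

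The 29 lysosome and V-ATPase genes and the 13 autophagy genes had medians of -0.02 and 0.14. The median of the autophagy genes was 0.07 without Sh-YAP1 replicate 2 and 0.09 without Sh-NC replicate 3, and at most 0.20 with another library left out. This difference between the sets was not tested. Negative values were found for 17 of the 29 and for 5 of the 13. In 12 of the 42 genes, or 28.6%, the 3 Sh-YAP1 libraries did not overlap the 3 Sh-NC libraries, a share close to the 29.4% among all genes tested (14.6% higher and 14.7% lower in Sh-YAP1). TFE3, LAMP2, NPC1, ATP6V0B, GABARAP and ATG5 lay lower in all 3 Sh-YAP1 libraries, and LAMP1, CTSL, NPC2, GABARAPL2, ULK1 and WIPI2 higher. For each of these 12 a two-sided exact permutation test returned p = 0.1, the lowest possible value with 3 libraries a group.

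**Figure D1:**
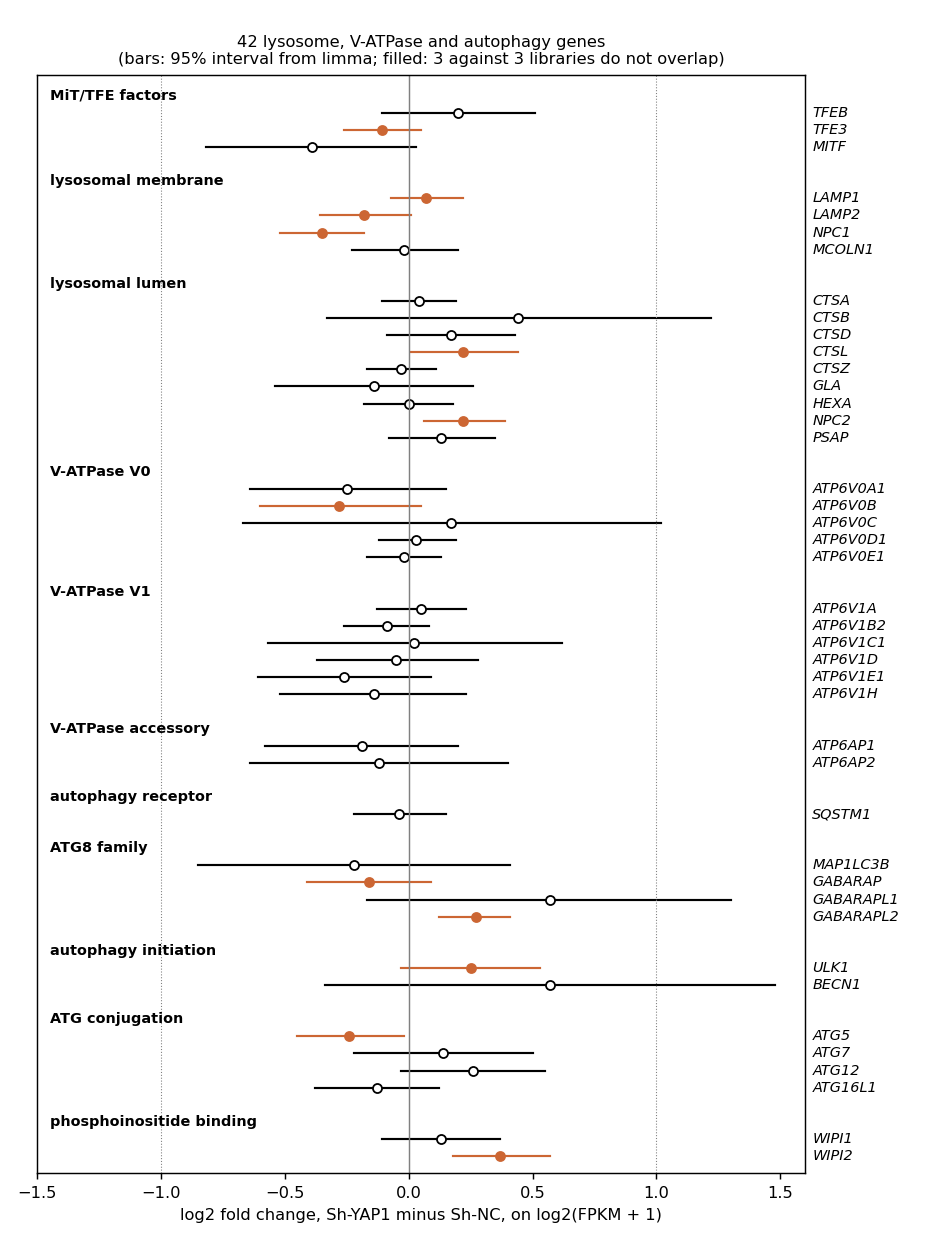
Log2 fold change (Sh-YAP1 minus Sh-NC, on log2(FPKM + 1)) of the 42 genes, grouped by role, with the 95% interval from limma as bars and filled points where the 3 libraries of each group do not overlap. The points run from -0.39 (MITF) to 0.57 (GABARAPL1 and BECN1), and no gene passed the adjusted p of 0.05.

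The MiT/TFE factors differed more from each other in level than between the groups. TFEB, the best known regulator of lysosome genes, was the least abundant of all 42 genes, at 1.52, 1.76 and 1.73 FPKM in Sh-NC and at 1.62, 2.42 and 2.22 FPKM in Sh-YAP1. TFE3, its close relative, was at 24.7, 25.1 and 23.8 FPKM against 23.1, 22.1 and 22.8 FPKM. MITF, the melanocyte factor of the same family, was at 10.3, 7.66 and 10.2 FPKM against 8.13, 5.19 and 7.48 FPKM. The groups overlapped for TFEB and MITF and were separate for TFE3, whose log2 fold change was -0.11 (SE 0.06, adjusted p = 0.375, limma). For TFEB and MITF the log2 fold changes were 0.20 (SE 0.13, adjusted p = 0.41) and -0.39 (SE 0.18, adjusted p = 0.26). TFEB was at 0.12 without Sh-YAP1 replicate 2 and at 0.31 without Sh-YAP1 replicate 1. When only transcripts above 0 in all 6 libraries were summed, TFEB was at 0.56 and MITF at -0.77.

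Promoters were searched for the element these factors bind. RefSeq promoters (GRCh38.p14, 250 bases before to 50 bases after a start) were matched for 33 of the 42 genes, 44 promoters in all. PSAP, HEXA, ATP6V1C1, ATP6V1H, ATP6V0E1, CTSB, ATP6V1A, LAMP2 and ATP6V1B2 were not matched. The E-box CACGTG occurred on either strand in 6 of these 44 promoters, or 13.6%, and in 7.26% of 35116 promoters of the same length. Its extension GTCACGTG, which contains the core, was present in the same number of member promoters, or 13.6%, against 2.4% of all promoters. TCACGTGA, which overlaps both, was present in 4, or 9.09%, against 0.98%. The lysosome genes were listed as TFEB-type genes, so these shares are not an independent result about the element. All promoters were counted whatever the level of their gene. The 6 genes with the element were ATP6V0B, ATP6V0D1, CTSA, CTSD, LAMP1 and MCOLN1, all from the lysosome and V-ATPase set and none from the matched autophagy genes. Other forms of the element, and sites beyond these promoters, were not searched. Capitals mark GTCACGTG or its reverse complement. The sequences that hold it, for the genes among the 33 matched with this exact match, are shown 5′ to 3′ on the gene's strand:
LAMP1 (chr13:113297036-113297113, plus strand): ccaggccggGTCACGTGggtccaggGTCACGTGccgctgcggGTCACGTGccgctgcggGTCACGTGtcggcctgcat
MCOLN1 (chr19:7522572-7522623, plus strand): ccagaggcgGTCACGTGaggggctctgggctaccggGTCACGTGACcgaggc
CTSA (chr20:45891282-45891326, plus strand): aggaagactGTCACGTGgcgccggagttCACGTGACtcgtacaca
CTSD (chr11:1763958-1763985, minus strand): ccggccgcgccCACGTGACcggtccggg
ATP6V0B (chr1:43974892-43974919, plus strand): cggcgtgggGTCACGTGgtaccggcgca
ATP6V0D1 (chr16:67481200-67481227, minus strand): ccccttatgGTCACGTGaggcgcttgcg

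The LAMP1 window holds 4 copies of the core CACGTG, spaced closely between 203 and 126 bases before the start, and 2 further windows of its promoter hold 1 copy each. The windows of MCOLN1 and CTSA hold 2 copies of the core each, in MCOLN1 within 52 bases of the start. A match is a description of the letters and not of binding. The 6 genes with the element had log2 fold changes from -0.28 to 0.17 with a median of 0.04, and the 27 matched genes without it had a median of -0.04 and ran from -0.39 to 0.57.

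Of the 4 genes of the lysosomal membrane, 3 had groups that did not overlap, where 29.4% of all genes did so, and they did not share a direction. NPC1, the transporter that exports cholesterol from the lysosome, was at 45.6, 47.7 and 44.1 FPKM in Sh-NC and at 37.7, 34.0 and 35.4 FPKM in Sh-YAP1. All 3 Sh-YAP1 libraries lay below every Sh-NC library, and the log2 fold change of -0.35 (SE 0.07) had the smallest adjusted p of the 42 genes, 0.0542 (limma). It passed the threshold with each library centred on its median (adjusted p = 0.0434) and with a filter of 1 FPKM (0.0498), in a range of 0.0434 to 0.349 over the alternatives. LAMP2, a heavily glycosylated protein of the limiting membrane that also takes part in chaperone-mediated autophagy, was at 22.7, 22.6 and 23.4 FPKM against 18.5, 20.6 and 21.4 FPKM. LAMP1, its paralogue, was at 74.5, 74.5 and 70.7 FPKM against 74.8, 77.7 and 79.0 FPKM, where the lowest Sh-YAP1 library was barely above the highest Sh-NC library. The log2 fold changes were -0.18 (SE 0.08, adjusted p = 0.248) for LAMP2 and 0.07 (SE 0.06, adjusted p = 0.524) for LAMP1. MCOLN1, a cation channel of the lysosome, averaged 18.3 FPKM against 18.0 FPKM. Summed over the 4 genes, the level stood at 162, 162 and 156 FPKM in Sh-NC and at 147, 151 and 155 FPKM in Sh-YAP1, without overlap.

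The 9 genes of the lysosomal lumen included the most abundant transcripts of the set. CTSD, an aspartic protease, was at 704, 672 and 570 FPKM in Sh-NC and at 660, 798 and 731 FPKM in Sh-YAP1. PSAP, the precursor of the saposins that help degrade sphingolipids, was at 393, 385 and 341 FPKM against 373, 432 and 423 FPKM. In both genes the highest libraries were of Sh-YAP1 and the groups overlapped. NPC2, which hands cholesterol to NPC1, was at 221, 224 and 213 FPKM in Sh-NC and at 240, 272 and 257 FPKM in Sh-YAP1. Its values lay higher in all 3 Sh-YAP1 libraries, with a log2 fold change of 0.22 (SE 0.07, adjusted p = 0.133, limma), opposite in sign to that of NPC1. With quantile normalization the log2 fold change of NPC2 was 0.31 with an adjusted p of 0.0299, in a range of 0.0299 to 0.285 over the alternatives. CTSL, a cysteine protease, was at 46.4, 43.1 and 38.5 FPKM against 47.8, 53.1 and 48.9 FPKM, also without overlap (log2 fold change 0.22, SE 0.09, adjusted p = 0.213). CTSA, a serine carboxypeptidase, and CTSZ, a cysteine carboxypeptidase, varied little, with means of 128 and 132 FPKM for CTSA and 132 and 129 FPKM for CTSZ in Sh-NC and Sh-YAP1. The enzymes HEXA, a subunit of beta-hexosaminidase, and GLA, alpha-galactosidase A, had log2 fold changes of -0.00 (SE 0.08) and -0.14 (SE 0.17), and GLA was at 0.04 without Sh-YAP1 replicate 1, its lowest library. CTSB, a cysteine protease, reached 35.9 FPKM in Sh-YAP1 replicate 2 and 22.3 FPKM in Sh-NC replicate 3 but lay between 13.0 and 19.4 FPKM elsewhere, and its log2 fold change of 0.44 (SE 0.32) was 0.11 without Sh-YAP1 replicate 2. Summed over the 9 genes, Sh-NC libraries averaged 1614 ± 105 FPKM and Sh-YAP1 libraries 1782 ± 125 FPKM (SD, n = 3), and the groups overlapped.

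Among the 13 V-ATPase genes, 9 log2 fold changes were negative and 4 positive, with a median of -0.09 and a range of -0.28 to 0.17. The sign was not the same under every alternative for ATP6V0C, ATP6V0E1, ATP6V1C1, ATP6V1D, ATP6V1E1 and ATP6AP2. It also turned for ATP6V0D1, whose lowest value was -0.00. None reached an unadjusted limma p of 0.05, and the summed level averaged 603 ± 43.8 FPKM (SD, n = 3) for Sh-NC against 575 ± 28.0 FPKM for Sh-YAP1, with overlap. In 1 gene the groups were separate. ATP6V0B, a subunit of the proton-carrying ring of V0, was at 32.3, 31.3 and 30.2 FPKM in Sh-NC and at 20.7, 27.2 and 29.8 FPKM in Sh-YAP1 (log2 fold change -0.28, SE 0.13, adjusted p = 0.288). The highest Sh-YAP1 library was close to the lowest Sh-NC library, and the log2 fold change was -0.13 without Sh-YAP1 replicate 1. ATP6V0C, the other ring subunit in the set, was at 94.4, 92.0 and 36.4 FPKM against 81.6, 73.7 and 76.0 FPKM, so that Sh-NC replicate 3 lay far below the rest. Its log2 fold change of 0.17 carried an SE of 0.35 and ranged from -0.27 to 0.40 over the alternatives. The other V0 genes were ATP6V0A1, the large membrane subunit, ATP6V0D1, which links the ring to the V1 stalk, and ATP6V0E1, a small membrane subunit, at -0.25 (SE 0.16), 0.03 (SE 0.07) and -0.02 (SE 0.06). ATP6V0A1 was at -0.11 without Sh-NC replicate 2 and at -0.42 without Sh-NC replicate 3.

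The V1 sector was represented by ATP6V1A and ATP6V1B2, the subunits that form the catalytic head, ATP6V1D of the central rotor, ATP6V1E1 and ATP6V1C1 of the peripheral stalks and collar, and the regulatory ATP6V1H. Their log2 fold changes lay between -0.26 for ATP6V1E1 (SE 0.15) and 0.05 for ATP6V1A (SE 0.08), and the groups overlapped in all 6. ATP6V1E1 was at 66.0, 92.9 and 65.1 FPKM against 58.6, 59.4 and 66.4 FPKM, with Sh-NC replicate 2 the high library. Without that library its log2 fold change was -0.09, and it was 0.39 when only transcripts above 0 in all 6 libraries were summed. ATP6V1C1 took a lower level in 1 library of each group, at 14.2, 23.1 and 22.8 FPKM in Sh-NC and at 23.3, 23.4 and 14.4 FPKM in Sh-YAP1. ATP6V1B2, ATP6V1D and ATP6V1H had log2 fold changes of -0.09, -0.05 and -0.14. The accessory proteins ATP6AP1 and ATP6AP2, which take part in the assembly of the pump, were at -0.19 (SE 0.16) and -0.12 (SE 0.22), each with its lowest value in Sh-YAP1 replicate 2. Without that library they were at -0.01 and 0.11.

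The autophagy set opened with 2 initiation genes of positive log2 fold change. ULK1, the kinase that starts autophagosome formation, was at 3.46, 4.23 and 3.03 FPKM in Sh-NC and at 4.26, 4.62 and 4.36 FPKM in Sh-YAP1, separate by a narrow margin (log2 fold change 0.25, SE 0.12, adjusted p = 0.267, limma, and 0.16 without Sh-NC replicate 3). BECN1, a subunit of the class III phosphoinositide 3-kinase complex, was at 19.6, 41.5 and 23.0 FPKM against 34.1, 66.0 and 28.2 FPKM. Replicate 2 was the highest library of both groups, and the log2 fold change of 0.57 carried an SE of 0.38 (adjusted p = 0.431). PSME3, which overlaps BECN1 on the opposite strand in GENCODE 29, was called higher in Sh-YAP1 (log2 fold change 0.76, adjusted p = 0.0353), and whether the reads were counted by strand is not given in the sources used here.

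WIPI2, which binds phosphoinositides on the forming membrane and recruits ATG16L1, had the lowest adjusted p of the autophagy set. It stood at 26.2, 25.4 and 22.6 FPKM in Sh-NC and at 33.7, 32.2 and 31.0 FPKM in Sh-YAP1, all 3 of the latter above every Sh-NC library. The log2 fold change was 0.37 (SE 0.08, adjusted p = 0.0639, limma), and the adjusted p ran from 0.0587 to 0.158 over the alternatives. WIPI1, its relative, had means of 23.3 ± 2.31 and 25.6 ± 2.06 FPKM (SD, n = 3) in Sh-NC and Sh-YAP1, with overlap.

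The conjugation genes did not share a sign, and for ATG7, ATG12 and ATG16L1 it turned, to -0.15, -0.13 and 0.05, when only transcripts above 0 in all 6 libraries were summed. ATG5 was at -0.05 in those sums. ATG5, which is joined to ATG12 in the enzyme that attaches ATG8 proteins to lipid, was at 11.8, 11.8 and 12.9 FPKM in Sh-NC and at 9.18, 10.5 and 10.9 FPKM in Sh-YAP1 (log2 fold change -0.24, SE 0.09, adjusted p = 0.195). Its partner ATG12 was at 14.9, 12.9 and 16.9 FPKM against 20.1, 16.7 and 17.3 FPKM (0.26, SE 0.12, adjusted p = 0.264). Thus all Sh-YAP1 libraries were below the Sh-NC libraries for ATG5, and the groups overlapped for ATG12. ATG7, the activating enzyme of both conjugation systems, and ATG16L1, the partner of the ATG5 conjugate, were at 0.14 (SE 0.15) and -0.13 (SE 0.11). ATG7 also shares its locus with an opposite-strand gene that was called higher in Sh-YAP1, VGLL4 (log2 fold change 1.15, adjusted p = 0.0113). In all, 14 of the 42 genes overlap a tested gene on the opposite strand, and only these 2 pairs include a called one.

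The ATG8 family, the ubiquitin-like proteins that coat the autophagosome, was split in sign. GABARAPL2 was at 30.7, 31.9 and 31.7 FPKM in Sh-NC and at 37.3, 38.6 and 38.3 FPKM in Sh-YAP1, with little spread within either group. Its log2 fold change was 0.27 (SE 0.06, adjusted p = 0.0711, limma), in a range of 0.25 to 0.30 over the alternatives with adjusted p from 0.0531 to 0.19. GABARAP, the most abundant of the family, was at 119, 124 and 118 FPKM against 117, 92.4 and 116 FPKM, separate but with Sh-YAP1 replicates 1 and 3 next to the Sh-NC libraries (log2 fold change -0.16, SE 0.10, adjusted p = 0.423). Without Sh-YAP1 replicate 2 the log2 fold change of GABARAP was -0.05. GABARAPL1 was at 4.31, 8.49 and 12.0 FPKM against 10.8, 12.2 and 12.5 FPKM, with a wide spread in Sh-NC (0.57, SE 0.31, adjusted p = 0.332). MAP1LC3B, the gene of the widely used marker LC3B, was at 30.7, 50.3 and 50.5 FPKM in Sh-NC and at 30.3, 31.8 and 50.6 FPKM in Sh-YAP1. Libraries near the lower and near the upper level occurred in both groups. MAP1LC3B2, a near-identical copy with a mean of 3.17 FPKM, could share reads with it, so both values are uncertain. SQSTM1, the receptor p62 that tethers ubiquitinated cargo to ATG8 proteins, was at 315, 319 and 298 FPKM against 283, 298 and 328 FPKM, with overlap (-0.04, SE 0.08, adjusted p = 0.814).

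**Figure D2:**
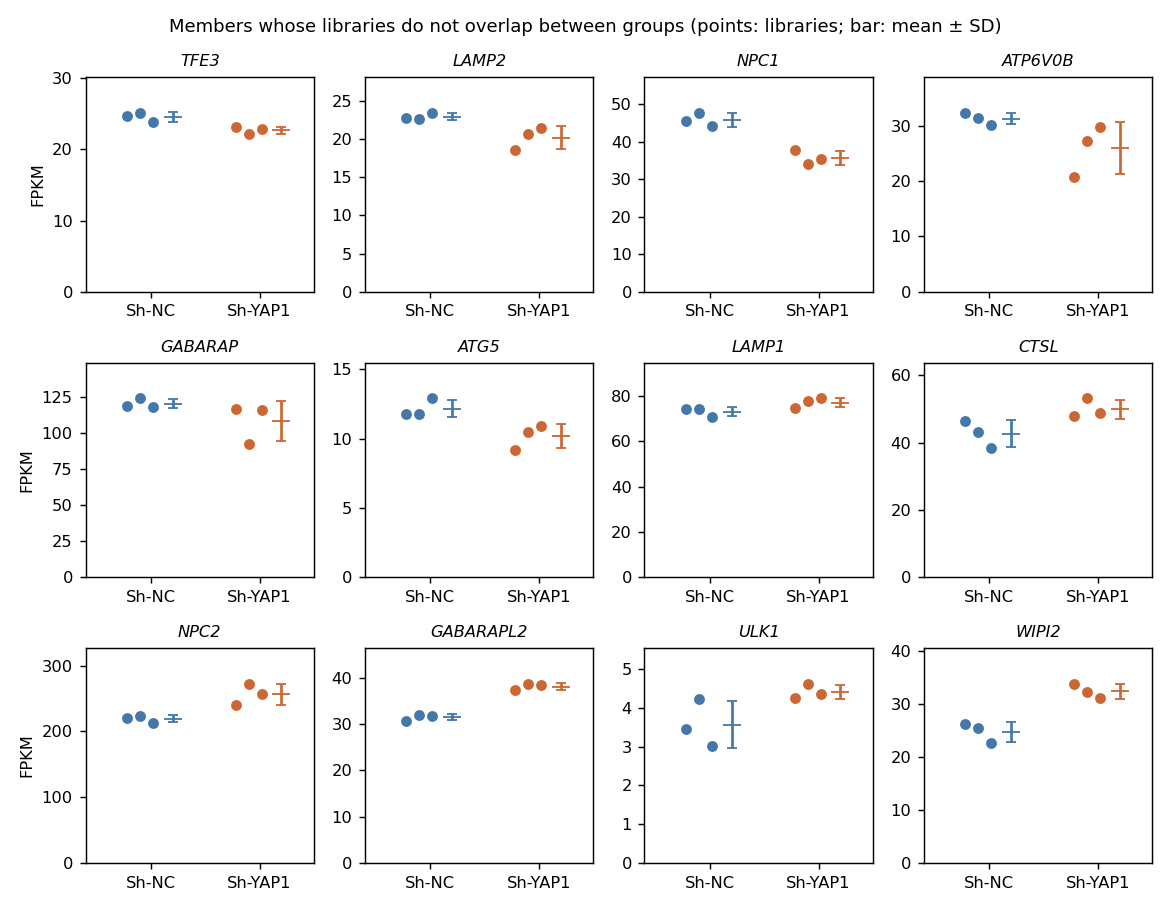
Expression in FPKM of the 12 genes whose libraries do not overlap between groups, with each library as a point and the mean ± SD as a bar (n = 3, linear axes from 0). GABARAPL2, WIPI2 and NPC1 are set apart by more than their within-group spread, whereas in LAMP1 and GABARAP the nearest libraries of the groups are almost level.

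The deposited values are given per transcript, and a gene's level was the sum of its transcripts. The 42 genes are listed with 532 transcripts, from 3 to 33 each, of which 322 had a mean of at least 0.1 FPKM and were tested. The rows carry gene identifiers, so a transcript is named here by its rank in mean FPKM within the gene. At an unadjusted limma p under 0.05 there were 19 of the 322, or 5.9%, against 6.12% of all 77655 transcripts tested, and 1 passed the adjusted threshold, where 0.0515% of all transcripts did. This transcript, the sixth in rank of ATP6V0D1, fell from 5.72, 6.03 and 5.30 FPKM in Sh-NC to 0.09, 0.45 and 0.10 FPKM in Sh-YAP1 (log2 fold change -2.47, SE 0.19, adjusted p = 0.0397), and the call was lost when any 1 of the 6 libraries was left out. It made up 2.66% of the gene's expression. The total of ATP6V0D1 was 115, 104 and 109 FPKM against 110, 114 and 111 FPKM, with overlapping groups. The second in rank stood at 6.07, 3.47 and 18.7 FPKM in Sh-NC and at 32.4, 35.8 and 22.7 FPKM in Sh-YAP1, higher in all 3 but with an adjusted p of 0.684. The third in rank of ATP6V1D was at 6.57, 10.7 and 4.73 FPKM in Sh-NC and listed at 0 in all 3 Sh-YAP1 libraries (adjusted p = 0.0731).

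For several genes the sum was steadier than its parts. Among transcripts of the 42 genes that reached 10 FPKM in a library, 15 of 68 (22.1%) were at or under 0.5 FPKM in another library, beside 2030 of 9674 (21%) among all transcripts. They belonged to 11 genes, and in 2 of the 15 transcripts the groups did not overlap. The first in rank of CTSD was at 589, 0 and 474 FPKM in Sh-NC and at 0, 0 and 625 FPKM in Sh-YAP1. Where it was listed at 0, the second or the third in rank took its place, so the total stayed between 570 and 798 FPKM. In BECN1 the first in rank was at 0, 20.3 and 0.39 FPKM against 0.68, 33.3 and 0 FPKM, and here the total was highest in the same 2 libraries. The first in rank of GABARAP was at 79.1, 73.1 and 69.9 FPKM against 1.37, 42.5 and 48.1 FPKM (adjusted p = 0.803), while the gene total was nearly level in 5 of the 6 libraries. In 9 of the 42 genes 1 transcript held over 90% of the total, among them MAP1LC3B, ATP6V0C and ATP6V1C1, so the separate levels described for these 3 lie within a single transcript. How transcripts were quantified is not given in the sources used here, and its part in these values was not tested.

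**Figure D3:**
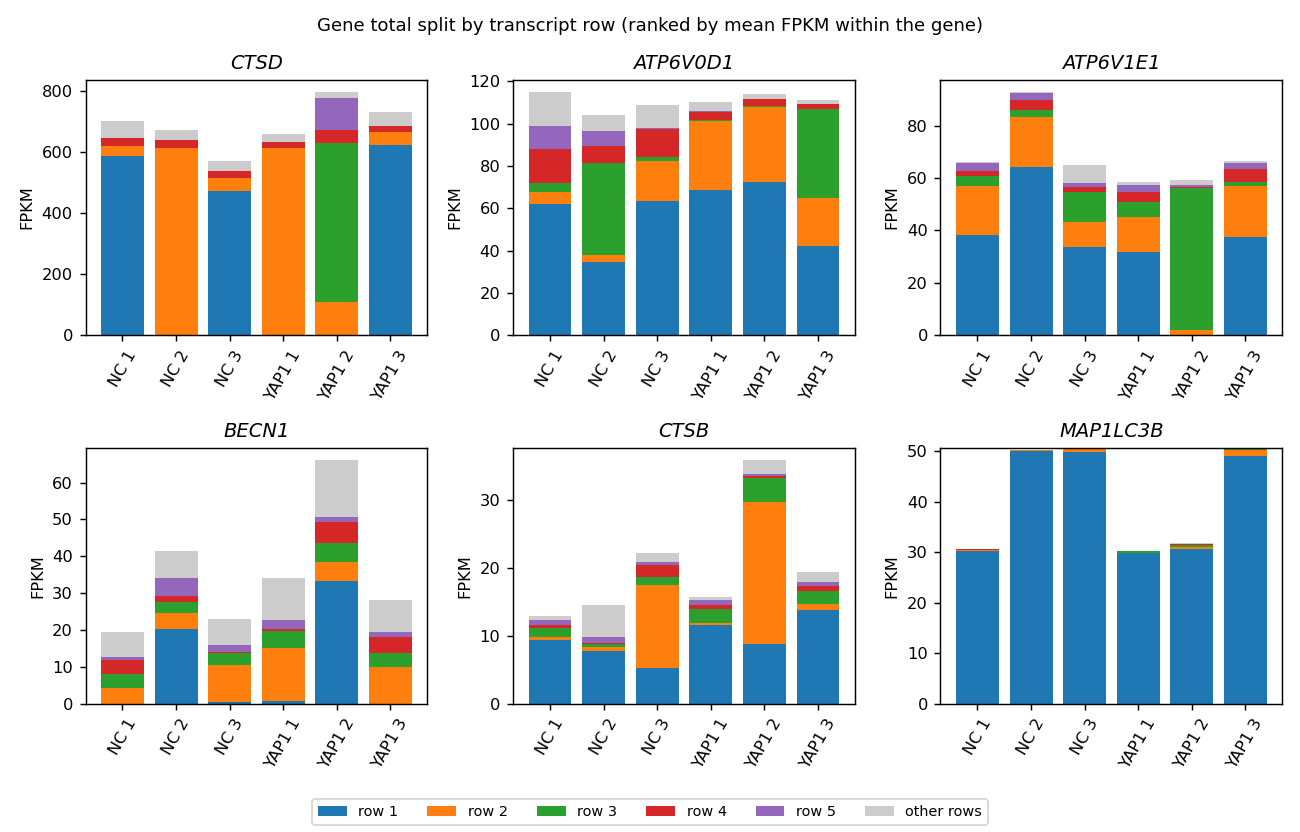
Gene totals in FPKM by library (NC for Sh-NC, YAP1 for Sh-YAP1), stacked by transcript in order of mean FPKM within the gene, for 6 of the 42 genes. The largest part of CTSD passes from the first to the second or the third transcript between libraries of the same group, whereas MAP1LC3B consists almost wholly of 1 transcript that lies near 30 or near 50 FPKM.

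Genes of the same pathways outside the 42 were taken from 6 lists. Of 117 listed genes, 109 were tested, and 3 were called higher and 1 lower in Sh-YAP1, where 1.75% and 1.62% of all genes were. At an unadjusted limma p under 0.05 there were 34, or 31.2%, beside 21.9% of all genes, and in 39, or 35.8%, the groups did not overlap, beside 29.4%. LIPA, the lysosomal acid lipase that hydrolyses cholesteryl esters and triglycerides, fell from 62.3, 61.6 and 61.0 FPKM in Sh-NC to 29.9, 30.2 and 31.7 FPKM in Sh-YAP1. The log2 fold change of LIPA was -0.99 (SE 0.06, adjusted p = 0.00411, limma), and the call was kept in 15 of 16 alternatives, among them those with 1 library left out, and lost with the replicate number as a block (adjusted p = 0.0996, in a range of 0.00369 to 0.0996). Its main transcript, with 96.5% of the total, was at 61.1, 57.0 and 59.7 FPKM against 28.8, 29.4 and 31.0 FPKM. TAX1BP1, a receptor for ubiquitinated cargo, rose from 29.1, 30.7 and 29.6 FPKM to 50.8, 50.1 and 43.8 FPKM (0.67, SE 0.08, adjusted p = 0.0136). The first of its transcripts overlapped between groups, at 22.9, 25.5 and 16.2 FPKM against 43.2, 12.2 and 37.5 FPKM. The receptor and the transporter called among the lysosomal membrane and sorting genes both rose. IGF2R, the cation-independent mannose 6-phosphate receptor that sorts hydrolases to the lysosome, was at 17.2, 15.9 and 15.2 FPKM against 23.4, 21.5 and 23.1 FPKM (0.47, SE 0.08, adjusted p = 0.0333). SLC17A5, the sialic acid exporter sialin, was at 10.6, 10.3 and 11 FPKM against 14.4, 14.0 and 15.2 FPKM (0.42, SE 0.07, adjusted p = 0.0356). IGF2R and SLC17A5 were not called when any 1 of the 6 libraries was left out, and TAX1BP1 was called in 1 of these 6 fits.

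**Figure D4:**
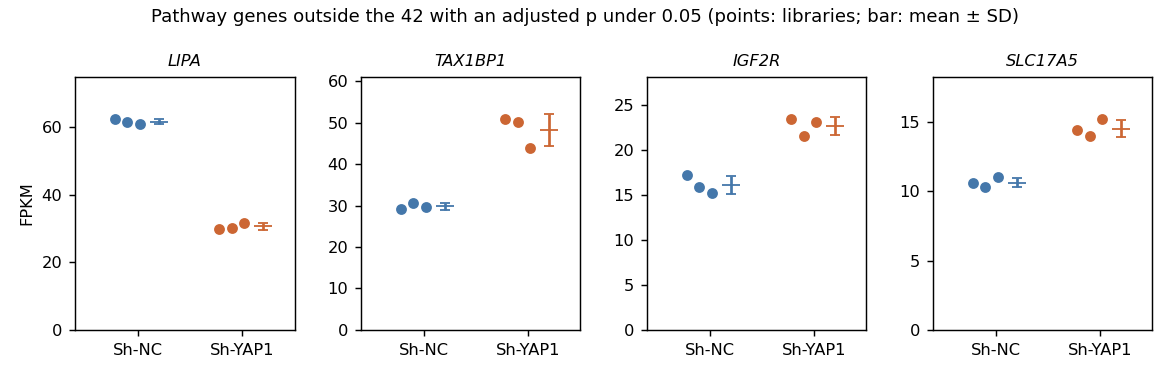
Expression in FPKM of the 4 called genes from the wider pathway lists, with each library as a point and the mean ± SD as a bar (n = 3, linear axes from 0). LIPA is near 61 FPKM in the 3 Sh-NC libraries and near 30 FPKM in the 3 Sh-YAP1 libraries, and TAX1BP1, IGF2R and SLC17A5 lie higher in all 3 Sh-YAP1 libraries.

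None of the other 3 lists held a called gene. Among 18 genes of lysosomal nutrient sensing, 5 (27.8%) had an unadjusted limma p under 0.05, beside 21.9% of all genes, and the largest differences were those of LAMTOR1, the membrane anchor of the Ragulator complex (-0.60, SE 0.13, adjusted p = 0.0639), and of FNIP2, a partner of folliculin (0.35, SE 0.08, adjusted p = 0.0813). Among 9 tested V-ATPase genes outside the 42, there were 3 (33.3%), and the largest differences were those of ATP6V1E2, an isoform of the stalk subunit (0.36, SE 0.20, adjusted p = 0.349), and of ATP6V0A4, an isoform of the large V0 subunit (-0.35, SE 0.12, adjusted p = 0.151). Among 20 further genes of autophagy machinery there were 6 (30%), and the largest differences were those of ATG4D, a protease that processes ATG8 proteins (-0.50, SE 0.13, adjusted p = 0.102), and WDR45, a member of the WIPI family (0.49, SE 0.17, adjusted p = 0.157).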

How the data were processed

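Per the labels, RNA of MDA-MB-231 cells (3 Sh-NC and 3 Sh-YAP1 libraries, day 3) was sequenced with an Illumina protocol. The authors deposited FPKM values with 2 decimals for 229420 transcript rows of 60612 gene identifiers per library. The submitters' processing notes name HISAT2 2.0, Bowtie 0.12.2 and hg19. The quantification tool, annotation, strand setting and filters are not given in the sources used here. The methods of the study point to a different series for this assay, so its description was tied to these libraries through cell line, hairpin and replicate number. No counts are given, so depth is unknown and no counting interval was computed. FPKM summed to between 467493 and 475116 per library.

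Rows sharing a gene identifier were summed, and 60401 of the 60612 identifiers were matched to a symbol. Values were analysed as log2(FPKM + 1), a scale that understates changes of low genes, with mean filters of 0.5 FPKM (genes) and 0.1 FPKM (transcripts). Groups were compared with limma 3.58.1 (lmFit, eBayes with a mean-variance trend, R 4.3.3) in a model of condition alone, and p-values were adjusted after Benjamini and Hochberg across every feature in the fit. A two-sided exact permutation test was added for the 42 genes. Summaries and plots were made in Python 3.11.15 (pandas 2.3.3, numpy 2.4.6, matplotlib 3.10.9). The study states in general terms that its data come from independent experiments, but neither the labels nor the sequencing methods say that these libraries came from separate cultures. The p-values then measure the spread between these libraries, which may be technical. The fits were tested on simulated data with known changes. They recovered 183 of 200 changes planted among genes, with 5 false calls, and 74 of 200 planted among transcripts, with 3 false calls. The planted changes were larger than every log2 fold change of the 42 genes, so recovery of changes of that size was not tested. Overlaps between genes were taken from GENCODE 29 by name, and promoters from RefSeq on GRCh38.p14, a different build from hg19. The promoter values therefore do not use coordinates of the deposited data.

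The 42 genes, the wider lists and the tests were chosen with earlier results of these data known. All 42 genes are accounted for. Values in every library were to be given for members that were called, for those whose groups did not overlap and for the MiT/TFE factors. From the wider lists, the called genes were to be named, or the 2 with the largest differences where a list had none. Values of other members were added, after they were seen, where 1 library or transcript stood apart or the level was high. Alternatives covered the pseudocount (0.1 and 0.01), quantile normalization, median centring, no mean-variance trend, no filter, a filter of 1 FPKM, the replicate number as a block, leaving out each library, gene sums restricted to transcripts averaging 0.1 FPKM or more and, added after the data were seen, sums over transcripts above 0 in all 6 libraries.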

Additional observations from a re-analysis of the deposited data

How the results depend on the processing

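Of 672 log2 fold changes of the 42 genes under 16 alternatives, 652 kept their side of the threshold and moved by less than the spread between replicates. In 4 alternatives 1 of the 42 genes was called, NPC2 with quantile normalization, NPC1 with median centring and with a filter of 1 FPKM, and BECN1 (0.54, adjusted p = 0.0334, limma) with sums over transcripts above 0 in all 6 libraries, an alternative chosen after seeing the data. With those sums 230 genes were called in place of 499, the wider lists held 1 call in place of 4, the median of the autophagy genes was 0.05 in place of 0.14, and YAP1 had a log2 fold change of -1.78 with an adjusted p of 0.199 (limma; 0.00164 to 0.199 over all alternatives), since transcripts listed at 0 in any library drop out by construction. Without a filter, with 30501 genes tested, 232 were called, and the wider lists held 2 calls. Leaving out 1 library gave 78 to 171 called genes, 1 to 2 calls in the wider lists, 0 of the 42 genes and 0 of their transcripts. With median centring 46.8% of the called genes were higher in Sh-YAP1 in place of 51.9%.

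The labels do not say whether same-numbered libraries were paired, and little variation shared by them was seen across genes. Deviations from the group means of same-numbered libraries correlated at -0.028, 0.062 and 0.004 across genes. In a fit blocked on replicate number, 1 gene was called in all (2779 at an unadjusted p under 0.05), with 0 of the 42 genes (7 at an unadjusted p under 0.05), 0 of the wider lists and 0 of the members' transcripts. Depth is unknown, so no limit of detection is given for TFEB and the other genes of low level, and 3 libraries per group limit the precision of all values.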

Other observations

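The 28 tested hydrolases of the wider lists are described here by genes chosen after their values were seen. Besides LIPA, 9 had an unadjusted limma p under 0.05, and all 9 had higher values in Sh-YAP1 without overlap between the groups, although none was called. Over all genes tested, 21.9% had such a p and 14.6% lay higher in Sh-YAP1 without overlap. Of the 28 hydrolases, 15 had a positive log2 fold change and 13 a negative one. They degrade different substrates: GAA cleaves glycogen, GLB1 beta-galactosides, MAN2B1 mannose-rich glycans, GALNS and IDUA glycosaminoglycans and ARSA sulfatides, while CTSF, CTSO and TPP1 are proteases. CTSO had the smallest adjusted p of them, with 1.17, 1.28 and 1.39 FPKM in Sh-NC and 2.07, 2.46 and 2.15 FPKM in Sh-YAP1 (log2 fold change 0.50, SE 0.10, adjusted p = 0.0523). GAA was at 17.9, 19.2 and 16.5 FPKM against 22.5, 24.7 and 26.2 FPKM (0.43, SE 0.09, adjusted p = 0.0585). The 3 Sh-YAP1 libraries lay above the Sh-NC libraries in both. TPP1 was at 10, 10.9 and 8.69 FPKM against 25.4, 15.9 and 13.4 FPKM, with Sh-YAP1 replicate 1 the highest (0.78, SE 0.22, adjusted p = 0.112). The median over the 28 genes was 0.07, beside -0.00 over all genes tested.

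Replicate-level values of SCARB2, the sorting receptor of beta-glucocerebrosidase, were 9.17, 8.35 and 20.5 FPKM in Sh-NC and 22.9, 21.6 and 22.2 FPKM in Sh-YAP1 (0.87, SE 0.31, adjusted p = 0.169). Sh-NC replicate 3 was near the Sh-YAP1 level, and the other two Sh-NC libraries were below it.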
